A study of Mus musculus with 120 samples.

Results

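Connective tissue cells and epithelial cells of the mutant endolymphatic sac were compared across all genes, and the connective tissue cells were then described 1 by 1. The classes were chosen by the measured values of 3 genes in Sox9Y440X/+ cells with at least 1000 gene entries above 0. A cell was connective if Epcam was below an FPKM of 1 and Col1a2 or Col3a1 reached an FPKM of at least 1, and epithelial if Epcam reached an FPKM of at least 1 and Col3a1 was below it. The rule took 19 connective and 37 epithelial cells, 56 of the 120 cells of the study. The study holds 62 cells from heterozygous Sox9Y440X/+ mouse embryos and 58 cells from wild-type embryos, all taken from the endolymphatic sac of the inner ear at E14.5. Sox9Y440X replaces a tyrosine codon of SOX9, residue 440, with a stop, and the other copy of the gene is wild-type. Each cell was sequenced by Smart-seq2, which reads full-length cDNA of single cells. Values are FPKM, a measure of sequenced fragments corrected for the length of the transcript and the depth of the cell.

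The endolymphatic sac is a blind, fluid-filled end of the inner ear lined by an epithelium and wrapped in periotic mesenchyme, the embryonic connective tissue that also forms the cartilage capsule of the ear. Mesenchymal cells secrete fibrillar collagens and proteoglycans into the space between cells. Epithelial cells are joined by tight junctions and keratin filaments and rest on a basement membrane. SOX9 is a transcription factor that is present in otic epithelium and that, with SOX5 and SOX6, switches on cartilage matrix genes such as Col2a1 in cells entering the cartilage lineage.

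No label ties a cell to an animal or a litter. Both classes therefore come from 1 sample, cells are not replicates, and the values below carry no test and no p-value. Of the 62 Sox9Y440X/+ cells 4 had fewer than 1000 genes, and 2 of the remaining 58 fell in neither class. Connective cells made up 32.8% of the 58 (exact Clopper-Pearson 95% interval 21.01% to 46.3%) and epithelial cells 63.8% (50.1% to 76.0%). These intervals, and those of shares given further on, cover counting error only. They are no test between classes. The same rule found 1 connective and 54 epithelial cells among 57 wild-type cells. Connective cells had 1406 to 6459 genes above 0 with a median of 3593, and epithelial cells 1959 to 6323 with a median of 4506. The read depth behind an FPKM value is unknown, and an exact 0 can be a failed estimate: Gapdh, which all cells use, was listed at 0 or below an FPKM of 1 in 2 of the 19 connective cells.

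The 3 genes of the rule separated the classes with no cell near the Epcam limit, and their values are a description only. Epcam, an adhesion protein of epithelia, was listed at 0 in all 19 connective cells and lay between 49.7 and 952 in the epithelial cells, with a median of 511. Col1a2, a chain of type I collagen, ranged from 18.5 to 556 in connective cells with a median of 244. Col3a1, the chain of type III collagen, ranged from 15.3 to 386 with a median of 155. Every connective cell therefore had both collagens. Col3a1 was listed at 0 in all 37 epithelial cells, while Col1a2 reached an FPKM of 1 in 10 of them, up to 156. The cell nearest to both classes, cell 040c (cells carry the number of their label, with c for Sox9Y440X/+), had Epcam at 82.2, Col1a2 at 172 and Col3a1 at 148 and was left out.

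**Figure D1:**
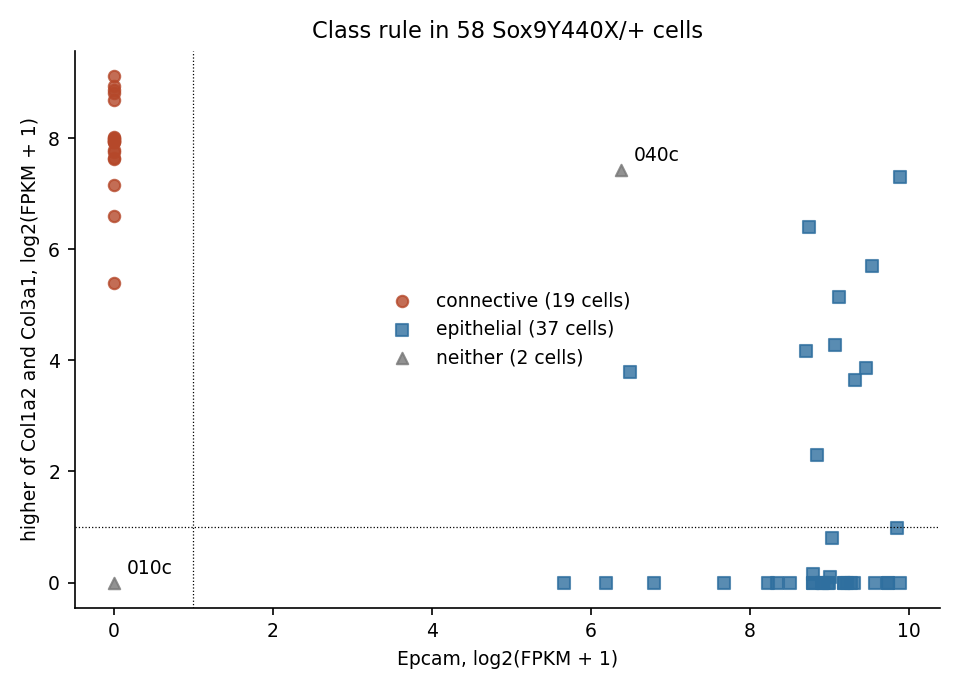
Each point is 1 of the 58 Sox9Y440X/+ cells, with Epcam on the x axis and the higher of Col1a2 and Col3a1 on the y axis, both as log2(FPKM + 1). Dotted lines mark an FPKM of 1. The 19 connective cells stand at an Epcam of 0, the 37 epithelial cells start at 49.7 FPKM, and cells 010c and 040c lie outside both classes.

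The names were checked against markers with the 3 genes of the rule left out. Of 12 such mesenchyme markers, connective cells had 1 to 9 at an FPKM of at least 1 (median 7) and epithelial cells 0 to 3 (median 1). Of 14 such epithelium markers, connective cells had 0 to 2 (median 0) and epithelial cells 5 to 13 (median 11). Connective cells held at most 1 marker each of osteoblasts, tendon, glia, macrophages, melanocytes, neurons, red cells and skeletal muscle. An osteoblast marker was found in 10 of the 19, a macrophage marker in 5 and a glia or Schwann cell marker in 4. Pou3f4 and Tbx18, transcription factors known from periotic mesenchyme, did not reach an FPKM of 1 in any of the 19 connective cells. The tissue label covers the sac, so these cells are called connective by their collagens, and the labels do not say where around the sac they lay.

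Across genes, the class difference is the mean of log2(FPKM + 1) over connective cells minus that over epithelial cells. A gene entered if it reached an FPKM of at least 1 in at least 25% of the cells of 1 class, and it counts as higher or lower if the difference was at least 2 log2 units. Of 6852 such genes, the rule genes left out, 256 (3.74%) were higher in connective cells and 524 (7.65%) were lower. The median difference over all of them was -0.22, and 41.9% lay above 0. These shares are taken over genes that entered, whereas the counts of listed genes that follow are out of all members measured. Not all measured members entered. Those that did were 5 fibrillar and 17 other collagens, 20 matrix glycoproteins, and 11 matrix proteases and inhibitors. Also entered were 17 tight junction, 16 otic epithelium, 11 insulin-like growth factor, 10 imprinted and 10 retinoic acid genes. The number was 11 for S phase, 19 for G2 and M phase and 42 for histone cluster genes. Of 34 Wnt genes 15 entered, of 14 p53 target genes 8, and of 7 metallothionein and small heat shock genes 5. A share of measured members is then lower than the share of those that entered, and only the latter compares with these background shares. A listed gene that enters through the class where it is high has to differ, so the counts describe the lists and are no support for them. The added constant of 1 makes the difference too small for low genes. Where a class is listed at 0 in every cell, levels are given and no difference.

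**Figure D2:**
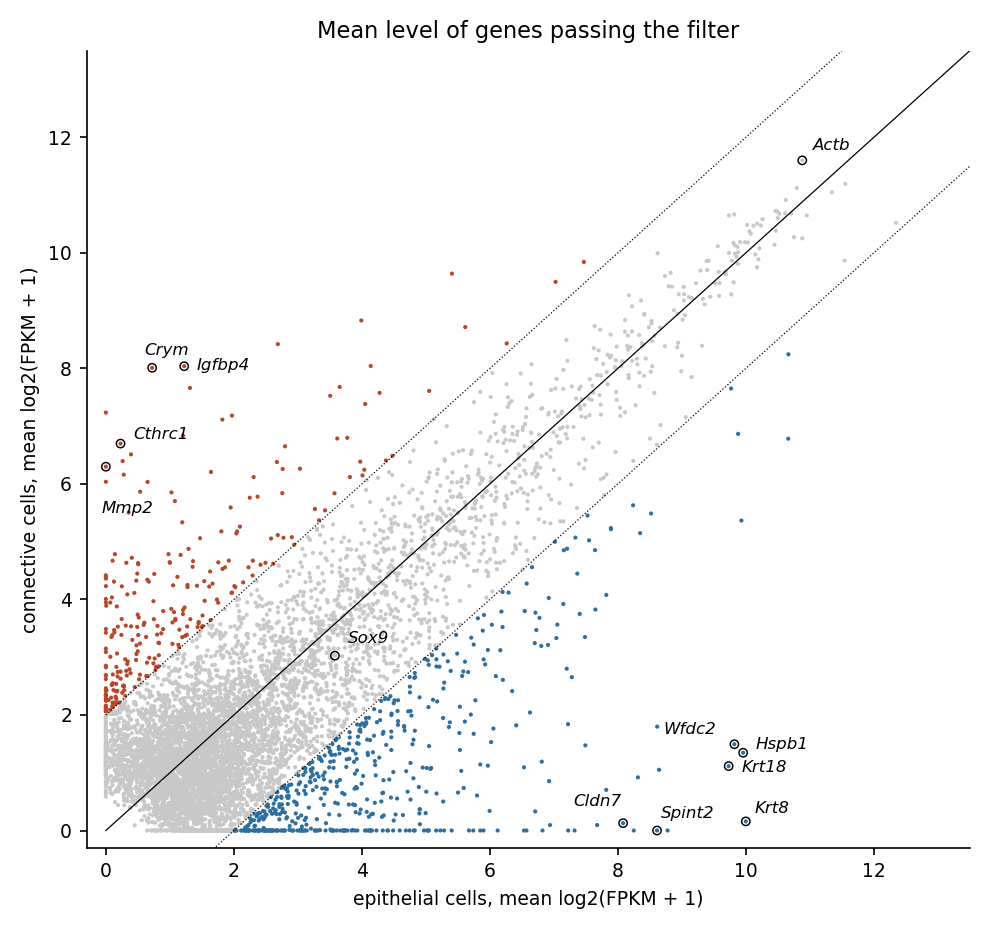
Each point is 1 of the 6852 genes, plotted by its mean log2(FPKM + 1) in 37 epithelial cells (x axis) and 19 connective cells (y axis). The solid line marks equal means and the dotted lines 2 log2 units. The 256 genes above the band (red) include Crym and Igfbp4, the 524 below it (blue) include Krt8, Krt18 and Spint2, and Sox9 and Actb lie inside it.

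Among the genes of the whole table, the largest positive differences belonged to secreted and matrix proteins, with a few intracellular ones. Crym, which encodes the thyroid hormone binding protein mu-crystallin, reached an FPKM of 1 in 17 of 19 connective cells (0 to 1721, median 749) and in 4 of 37 epithelial cells (highest 208), a difference of 7.29. Igfbp4, a secreted binding protein for insulin-like growth factors, was present in all 19 connective cells (23.5 to 719, median 286) and in 10 epithelial cells (highest 105), a difference of 6.81. Most connective cells lay above the highest epithelial cell for both genes, but the ranges overlapped.

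Cthrc1, a secreted protein with a collagen repeat, was found in 16 connective cells (median 201, highest 1967) and 2 epithelial cells, a difference of 6.47. Il33, an alarmin of the interleukin-1 family stored in nuclei, was found in 16 connective cells (median 178, highest 883) and 2 epithelial cells, a difference of 6.13. Mmp2, the gelatinase that cleaves denatured collagen, was found in 17 connective cells (median 140, highest 321) and was listed at 0 in all 37 epithelial cells. Lgals1, a galactoside-binding lectin, was present in all 19 connective cells (11.4 to 1660, median 437) and in 18 epithelial cells (highest 180), a difference of 5.73.

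Collagens, the main fibres of connective tissue, included several genes that were higher in connective cells. Besides the 2 genes of the rule, 4 of the other 7 fibrillar collagen genes measured were higher: Col1a1, Col2a1, Col5a2 and Col5a1. Col1a1, the partner chain of Col1a2, ran from 0 to 994 (median 190) in connective cells, with 16 cells at an FPKM of at least 1, and stayed at or below 19.2 in epithelial cells, a difference of 5.88. Col5a2 and Col5a1, chains of the type V collagen that starts fibrils, differed by 3.17 and 2.55. Col11a1 was shared, with a difference of 0.36, and was found in 11 of 19 connective and 18 of 37 epithelial cells. Col5a2 (chr1:45374321-45503282 on GRCm38) is the neighbour of Col3a1 (chr1:45311538-45349706).

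Of 21 other collagen genes, 7 were higher and 1 was lower. Col26a1 was found in 13 connective cells (median 24.4, highest 742) and Col6a3, a chain of the beaded filaments of type VI collagen, in 10 (highest 219), and both were listed at 0 in every epithelial cell. Col18a1, a collagen of basement membranes, went the other way, with 3 connective cells and 25 epithelial cells (median 16.6) and a difference of -2.49. Lox, the oxidase that starts the crosslinking of collagen, was found in 10 connective cells (highest 135) and was listed at 0 in epithelial cells. Fkbp10, a collagen-folding isomerase, differed by 3.21. The chaperone Serpinh1, which binds procollagen, was in 19 connective and 35 epithelial cells with a difference of 0.78. Of 24 collagen processing genes 19 entered, of which 3 were higher and 1 was lower.

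The proteoglycans and glycoproteins that sit between collagen fibres gave a mixed picture with some very wide gaps. Lum, the proteoglycan lumican, was found in 15 connective cells (median 201, highest 687) and was listed at 0 in all epithelial cells. Bgn, biglycan, was found in 17 connective cells (median 103, highest 591) and 6 epithelial cells (highest 46.4), a difference of 5.38. Dcn, decorin, did not separate the classes: 6 connective cells (highest 244) and 3 epithelial cells (highest 474) had it, and the difference was 0.90.

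Of 27 interstitial matrix glycoproteins, 10 were higher in connective cells and 1 was lower. Fn1, fibronectin, was found in 18 connective cells (median 64.7, highest 522) and 8 epithelial cells, a difference of 4.83. Emilin1, a protein of elastic fibres, differed by 3.98, Tgfbi by 3.75 and the large proteoglycan Vcan by 3.24. Sparc, a collagen-binding protein, was equally high on both sides, with a median of 610 in connective and 603 in epithelial cells and a difference of 0.01.

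The list of basement membrane genes of epithelia ran in the opposite direction. Of 15 measured, 10 entered, of which none was at least 2 log2 units higher and 3 were lower in connective cells. Col4a1, Col4a2, Col4a5, Col4a6, Nid1 and Nid2, also of basement membranes, were counted in the collagen and glycoprotein lists above. The direction therefore holds for this list only. Lama5, a laminin chain, was found in 26 epithelial cells (median 5.87, highest 336) and was listed at 0 in all 19 connective cells. Itga6, a subunit of laminin receptors, differed by -2.31. Among 17 matrix proteases and their inhibitors 3 were higher, Mmp2, Htra1 (difference 4.62) and Serpine2 (13 connective cells, listed at 0 in epithelial cells). Mmp23 was the lower one, with 30 epithelial cells at a median of 148 and all 19 connective cells listed at 0.

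**Figure D3:**
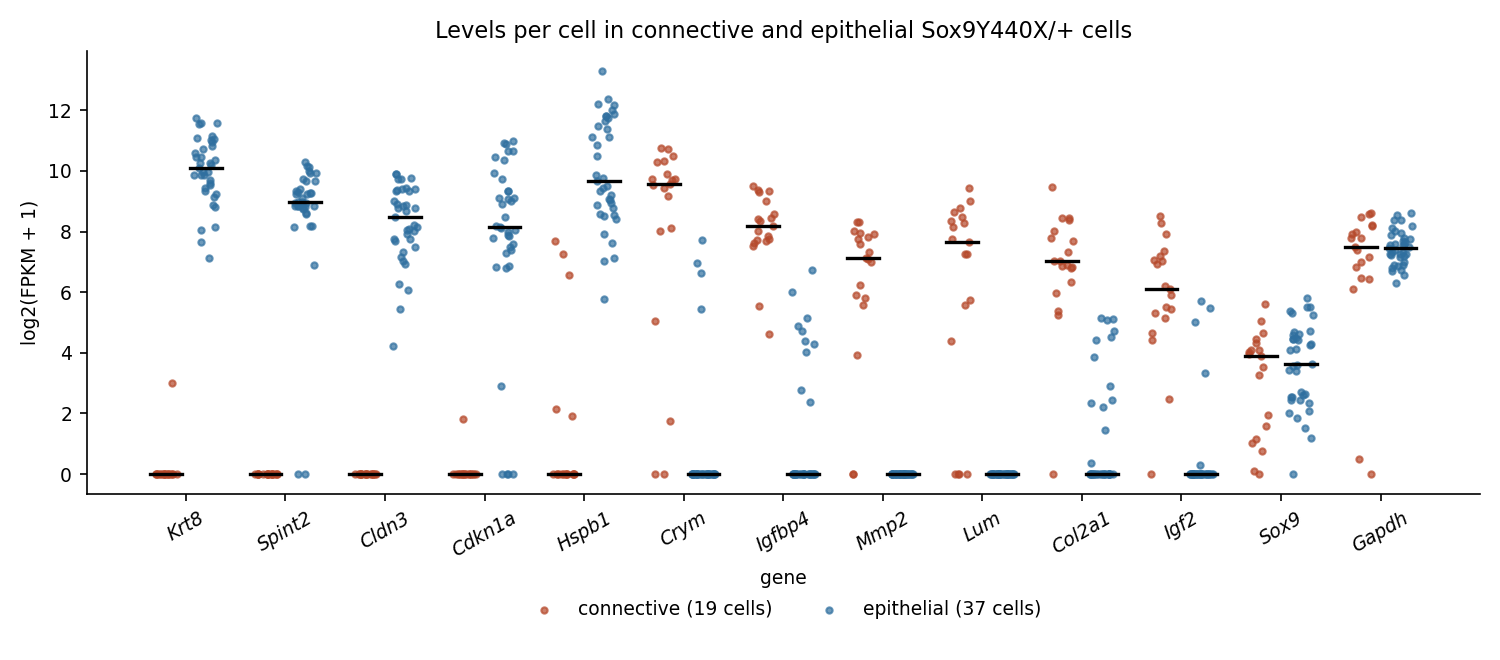
Points are single cells, with log2(FPKM + 1) on the y axis for 13 genes in the 19 connective (red) and 37 epithelial (blue) cells, and black bars mark medians. Krt8, Spint2, Cldn3, Cdkn1a and Hspb1 are high in epithelial cells, Crym, Igfbp4, Mmp2, Lum, Col2a1 and Igf2 in connective cells, and Sox9 and Gapdh overlap between the classes.

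Genes of epithelial identity were among those with the widest differences in the table. Krt8 and Krt18, the paired keratins of simple epithelia, lie side by side (Krt8 at chr15:101996698-102004482, Krt18 at chr15:102028180-102032027 on GRCm38). Krt8 ranged from 139 to 3432 over the 37 epithelial cells and was found in 1 connective cell at 7.01, a difference of -9.84. Krt18 had a median of 1196 in epithelial cells and was found in 3 connective cells, the highest being cell 012c at 441, a difference of -8.62. Vim, the intermediate filament of mesenchyme, had the reverse pattern with all 19 connective cells at 2.95 to 1018 (median 230), against 21 epithelial cells (highest 170), a difference of 4.02.

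Of 21 tight junction genes measured, 8 were lower in connective cells and none was higher. Cldn3, a sealing claudin, lay between 17.5 and 961 in the 37 epithelial cells (median 358), and Cldn4 was found in 34 of them (median 102). Both were listed at 0 in every connective cell. Cldn7 was found in 36 epithelial cells (median 378) and in 1 connective cell at 4.39, a difference of -7.96. The widest gaps also took in surface and cytoplasmic proteins: Ly6e differed by -7.59, the tetraspanin Cd9 by -7.39, the actin-capping protein Capg by -7.12 and Frrs1 by -6.85, while Plekhb1 was found in 33 epithelial cells and listed at 0 in connective cells. The scaffold protein Tjp1 differed by -0.69.

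Spint2 and Spint1, inhibitors of membrane serine proteases, were found in 35 and 32 epithelial cells with medians of 499 and 123, and both were listed at 0 in all connective cells. Cdh1, E-cadherin, was found in 26 epithelial cells (median 21.8) and Elf3, a transcription factor of epithelia, in 21 (median 29.8), again with all connective cells listed at 0. Cdh2, N-cadherin, which often marks mesenchyme, was the other way round here: 30 of 37 epithelial cells (median 26.1) and 6 of 19 connective cells had it, a difference of -3.08. Cdh11, a mesenchymal cadherin, was found in 18 connective cells (median 25.3) and 6 epithelial cells, a difference of 3.67. The 2 collagen receptors of the discoidin family took opposite sides, Ddr2 with 17 connective and 1 epithelial cell (difference 3.88) and Ddr1 with 4 and 33 (difference -3.67).

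Several repressors of epithelial genes bind the short sequence CACCTG, and 4 of them were seen on the connective side. Snai1 was found in 8 connective cells (highest 171), Zeb2 in 7 (highest 507), Snai2 in 4 (highest 57.03) and Zeb1 in 4 (highest 65.8), and all 4 genes were listed at 0 in the 37 epithelial cells. At least 1 of Snai1 and Zeb2 was present in 12 of 19 connective cells and in 0 of 37 epithelial cells. RefSeq promoter windows of 250 bases before to 50 after a gene's start, on GRCm38.p6, were searched for CACCTG and its reverse complement CAGGTG on both strands. The sequences of 4 epithelial genes that hold it, and of Col3a1, which does not, are printed to show where the letters stand, 5′ to 3′ on the strand of the gene with the motif in capitals.
Epcam promoter window, chr17:87635729-87636028, plus strand: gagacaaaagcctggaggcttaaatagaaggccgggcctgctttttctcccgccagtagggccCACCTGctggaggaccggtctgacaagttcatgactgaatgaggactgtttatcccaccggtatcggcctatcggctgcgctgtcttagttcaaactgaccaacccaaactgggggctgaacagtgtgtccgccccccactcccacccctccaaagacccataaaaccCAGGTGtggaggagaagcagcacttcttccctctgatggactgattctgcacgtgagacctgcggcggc
Spint2 promoter window, chr7:29281928-29282227, minus strand: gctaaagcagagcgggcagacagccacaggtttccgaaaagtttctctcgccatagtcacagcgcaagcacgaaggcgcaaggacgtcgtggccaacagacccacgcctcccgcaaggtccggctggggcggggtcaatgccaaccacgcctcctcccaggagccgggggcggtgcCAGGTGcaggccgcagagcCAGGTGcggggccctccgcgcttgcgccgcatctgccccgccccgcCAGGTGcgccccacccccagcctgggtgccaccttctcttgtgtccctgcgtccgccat
Cldn4 promoter window, chr5:134946885-134947184, minus strand: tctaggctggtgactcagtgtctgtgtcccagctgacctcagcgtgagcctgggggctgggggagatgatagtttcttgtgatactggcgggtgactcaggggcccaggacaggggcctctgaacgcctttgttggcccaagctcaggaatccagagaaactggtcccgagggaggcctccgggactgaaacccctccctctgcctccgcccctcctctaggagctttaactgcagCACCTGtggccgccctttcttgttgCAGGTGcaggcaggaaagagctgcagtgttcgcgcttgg
Krt8 promoter window, chr15:102004293-102004592, minus strand: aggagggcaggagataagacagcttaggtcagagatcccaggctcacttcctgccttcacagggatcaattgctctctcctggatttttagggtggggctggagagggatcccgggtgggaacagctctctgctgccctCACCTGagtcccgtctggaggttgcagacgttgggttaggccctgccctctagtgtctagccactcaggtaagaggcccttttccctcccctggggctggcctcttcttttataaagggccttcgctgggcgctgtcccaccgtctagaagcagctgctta
Col3a1 promoter window, chr1:45311288-45311587, plus strand: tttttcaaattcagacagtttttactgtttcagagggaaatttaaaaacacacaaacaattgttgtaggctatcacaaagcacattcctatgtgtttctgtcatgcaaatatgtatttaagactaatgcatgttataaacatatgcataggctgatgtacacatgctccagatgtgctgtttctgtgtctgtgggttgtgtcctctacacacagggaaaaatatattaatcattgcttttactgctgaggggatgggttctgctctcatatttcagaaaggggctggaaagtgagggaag

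Among epithelium markers with a window, 9 of 10 genes (90%) held the motif, and among mesenchyme markers 0 of 11 did. Spint1 was the epithelium marker with a window but without the motif. Of the 15 epithelium markers, Cdh1, Krt19, Esrp1, Esrp2 and Grhl2 had no window and stay unknown. Of the 14 mesenchyme markers, Col1a1, Lum and Dcn had none. Cldn7 had a window with the motif and another without it, and was counted as holding it. Whether the repressors act on any of these genes was not tested. Unlike the other list counts, these take in the rule genes Epcam, Col1a2 and Col3a1. In genes at least 2 log2 units lower in connective cells 121 of 401 with a window (30.2%) held it, in genes higher 25 of 165 (15.2%), and in all genes that entered the comparison 919 of 4819 (19.1%). Over all genes of the RefSeq table the share was 22.6%. This was the 1 motif searched, chosen after expression values were known. A match is a run of letters and shows no binding, and a window without one says nothing of the factors.

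Most transcription factors on the lists did not reach the threshold in either direction. Of 43 mesenchyme transcription factors, 4 were higher in connective cells (Foxp2, Prrx1, Ebf1 and Prrx2) and 3 were lower (Dlx5, Lmx1a and Nr2f1). Of the 43, 23 entered the comparison, so 4 of 23 were higher and 3 of 23 were lower. Among all genes that entered, 3.74% were higher and 7.65% lower. Of 12 epithelial transcription factors 5 entered, of which 2 were lower and none was higher. Prrx1, a homeobox factor of limb and head mesenchyme, was found in 14 connective cells (median 27.3, highest 143) and 2 epithelial cells, a difference of 3.71. Foxp2 was found in 13 connective cells (median 43.7, highest 648) and differed by 3.96. Dlx5 and Lmx1a are also factors of the otic epithelium, and there they were common: Dlx5 in 33 epithelial cells (median 110) and 1 connective cell, a difference of -5.66, and Lmx1a in 31 epithelial cells, with all connective cells listed at 0.

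The Zic zinc finger factors, known from dorsal neural tissue and the mesenchyme around it, were added to the lists after their values were seen. Zic4 was found in 14 connective cells (median 34.1, highest 144) and in 1 epithelial cell, a difference of 4.18. Zic1, whose gene overlaps that of Zic4 on the opposite strand (chr9:91358058-91365810 against chr9:91362413-91389348), was found in 12 connective cells and 2 epithelial cells, a difference of 1.66. Without strand-specific reads the 2 genes cannot be fully told apart where they overlap.

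Genes of the otic and endolymphatic epithelium were low in connective cells. Of 26 measured, 9 were lower and none was higher. Wfdc2, a secreted protease inhibitor, ranged from 87.1 to 2741 in the 37 epithelial cells and was found in 4 connective cells (highest 212), a difference of -8.33. Ptgds, Fxyd3 and Aldh1a1 were found in 26, 27 and 25 epithelial cells and were listed at 0 in all connective cells. Of 20 genes of ionocytes, the acid- and anion-moving cells of the sac, 1 entered the comparison: Car2, a carbonic anhydrase, found in 19 epithelial cells and listed at 0 in connective cells.

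Sox9 itself did not separate the classes. It was found in 16 of 19 connective cells (0 to 48.4, median 14.01) and in 36 of 37 epithelial cells (0 to 55.2, median 11.5), a difference of -0.55. The ranges overlapped over nearly their whole length. FPKM values do not show which of the 2 alleles a transcript came from, so they do not check the genotype label. Sox10, the related SoxE factor, was found in 2 epithelial cells and was listed at 0 in connective cells. Sox5 and Sox6, the cartilage partners of SOX9, were found in 5 and 3 connective cells and in 8 and 13 epithelial cells, with differences of 0.18 and -1.07.

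In the insulin-like growth factor axis 5 of 15 genes were higher in connective cells and none was lower. Igf2, a fetal growth factor expressed from the paternal copy, was found in 18 connective cells (median 68.0, highest 364) and 4 epithelial cells (highest 51.6), a difference of 5.33. H19, the untranslated RNA of the same imprinted domain (H19 at chr7:142575529-142578143, Igf2 at chr7:142650766-142666816), was found in 14 connective and 3 epithelial cells, a difference of 4.32. Igf1, the second ligand, was found in 15 connective cells (median 23.4, highest 548) and 1 epithelial cell, a difference of 4.57. The receptor gene Igf1r was nearer on both sides, with a difference of 0.78.

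Of 13 imprinted growth genes, 7 were higher and 1 was lower. Peg3, a paternally expressed zinc finger gene, was found in 18 connective cells (median 58.5, highest 198) and 5 epithelial cells (highest 9.03), a difference of 5.15. Mest differed by 3.58 and Cdkn1c, an inhibitor of cyclin-dependent kinases, by 3.41. Plagl1 was the lower one, with a difference of -2.50.

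A few genes of other signals differed. Gdf10, a BMP-like ligand, was found in 15 connective cells (median 41.1, highest 159) and Tgfb2 in 11 (highest 572), and both were listed at 0 in epithelial cells. Id3, a target of BMP signalling, ranged from 90.9 to 987 in the 19 connective cells and was found in 22 epithelial cells (highest 452), a difference of 4.84. Wnt5a was found in 14 connective and 2 epithelial cells, a difference of 3.26, whereas Wnt6 was found in 28 epithelial cells (median 41.9) and was listed at 0 in connective cells. In the TGF-beta and BMP list 18 of 32 genes entered, of which 4 were higher and 1 was lower. In the Wnt list 15 of 34 entered, of which 2 were higher and 1 was lower. Among all genes that entered, 3.74% were higher and 7.65% lower.

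Retinoic acid genes differed in both directions. Aldh1a1, which makes retinoic acid, was epithelial as given above, and Rdh10, which makes its precursor retinaldehyde, was found in 30 epithelial and 2 connective cells, a difference of -3.88. On the connective side stood the receptor Rarb (16 connective and 8 epithelial cells, difference 3.60) and Dhrs3, a reductase that returns retinaldehyde to retinol (difference 3.33). In total 4 of 15 were higher and 3 were lower. The platelet-derived growth factor receptors were connective, Pdgfra in 11 cells (highest 107) and in 0 epithelial cells, and Pdgfrb in 10 cells and 1 epithelial cell.

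Surface, guidance and cytoskeleton genes added to the division. Vcam1, an adhesion receptor, was found in 13 connective cells (median 71.9, highest 470.1) and was listed at 0 in all epithelial cells. Efnb1, a ligand of Eph receptors, was found in 16 connective and 7 epithelial cells, and the repellent Slit2 in 3 and 30, a difference of -4.14. Stmn1, which destabilises microtubules, and Tubb5, a tubulin, differed by 4.03 and 3.10. Of 20 cytoskeleton genes 17 entered, of which 7 were higher and none was lower. In the FGF list 8 of 17 genes entered and 3 were higher, among them the feedback phosphatase Dusp6 with 2.59. Of 13 hedgehog genes 5 entered the comparison, and of 15 Notch genes also 5, and none of these differed by 2 log2 units.

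**Figure D4:**
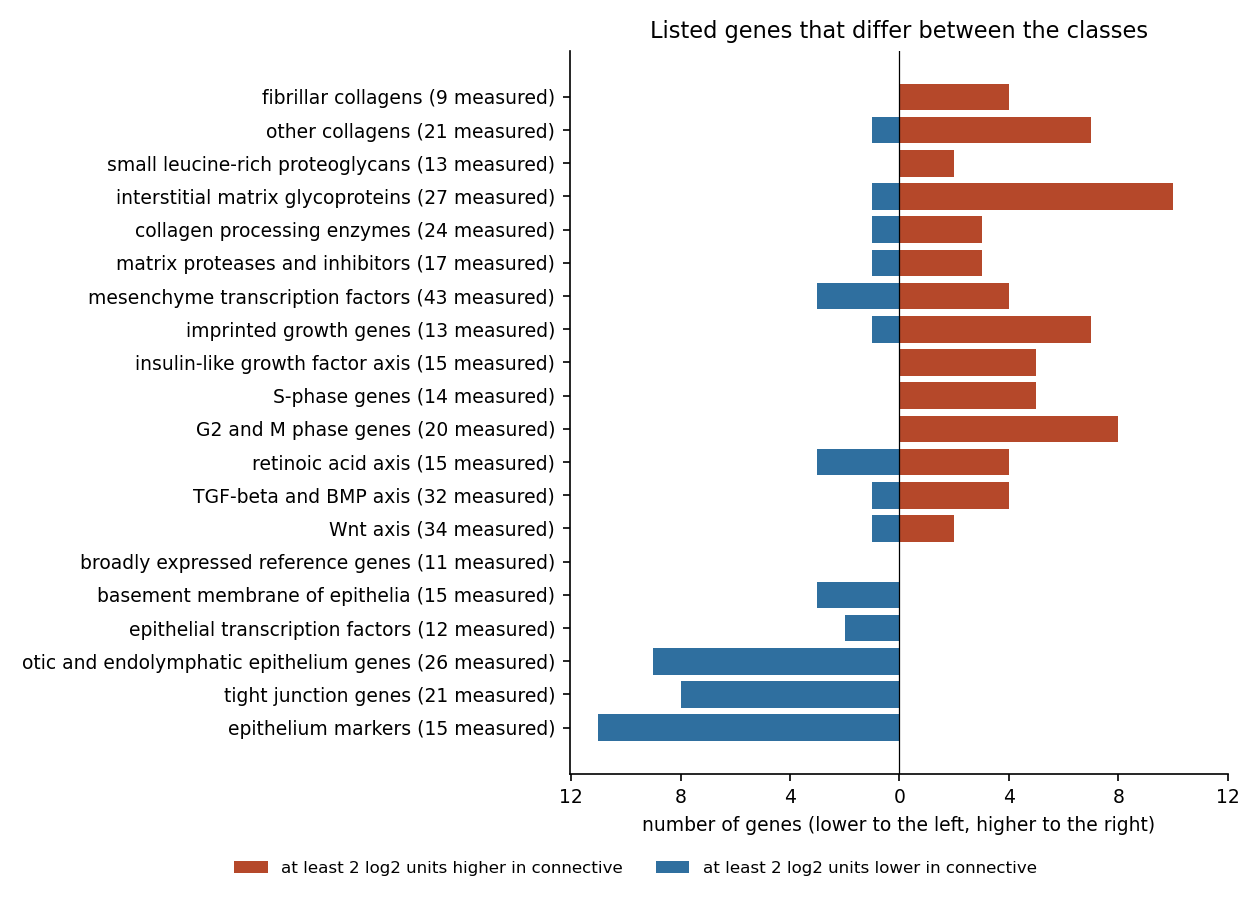
Bars give the number of genes of each list that were at least 2 log2 units higher (red, to the right) or lower (blue, to the left) in the 19 connective cells against the 37 epithelial cells, with the number of listed genes measured beside each name. The rule genes are measured but never counted. Matrix, imprinted and cell cycle lists point right, with 10 matrix glycoproteins higher, and epithelial lists point left, with 11 epithelium markers lower. Broadly expressed reference genes have no bar.

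Several genes that respond to stress or to growth arrest were lower in connective cells, and the lists for them were added after their values were seen. Cdkn1a, the p21 inhibitor of cyclin-dependent kinases, was found in 33 epithelial cells (median 285, highest 2031) and in 1 connective cell at 2.49, a difference of -7.58. Hspb1, a small heat shock protein, ranged from 54.1 to 10059 in the 37 epithelial cells and was found in 5 connective cells (highest 204), a difference of -8.61. Mt1, a metallothionein that binds zinc and copper, was found in 31 epithelial cells (median 185, highest 3467) and was listed at 0 in all connective cells. Of 7 metallothionein and small heat shock genes 5 were lower in connective cells, and of 14 p53 target genes, Cdkn1a among them, 3 were lower. Neither list had a higher gene. Wild-type epithelial cells carried these genes as well, with Cdkn1a in 44, Hspb1 in 49 and Mt1 in 44 of 54.

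Immediate-early genes, which cells switch on within minutes of a stimulus, were mostly but not all lower in connective cells. Of the 21 that entered, 16 lay below 0 and 5 above. Their median difference was -1.22, against -0.22 over all genes that entered. Fos and Jun were present in nearly all cells of both classes, with differences of 0.31 and 1.03 and medians of 407 and 62.9 in connective cells. Nr4a1, Atf3 and Btg2 differed by -6.02, -5.62 and -5.44, found in 7, 4 and 5 connective cells and in 34, 30 and 36 epithelial cells. Of 26 such genes 6 were lower and Socs3 was higher. The 11 broadly expressed reference genes ranged from -0.99 (Ywhaz) to 0.72 (Actb), and none reached 2 log2 units.

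Within the connective class, 3 collagen genes of cartilage were found in nearly every cell. Col2a1, the main collagen of cartilage, was found in 18 of 19 cells (median 129, highest 713), Col9a1 in 17 (median 130, highest 716) and Col9a3 in 18 (median 168, highest 719). All 3 together were present in 17 of 19 connective cells and in 0 of 37 epithelial cells. In epithelial cells Col2a1 and Col9a3 each appeared in 12 cells, Col2a1 up to 34.3 and Col9a3 up to 324. Their differences were 5.63, 6.12 and 5.21. Of the 18 chondrocyte markers 10 entered, of which 3 were higher.

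Aggrecan (Acan), the large proteoglycan of mature cartilage, reached an FPKM of 1 in 2 connective cells, and the mature cartilage genes Comp and Snorc (listed under its older symbol 3110079O15Rik) in 0. Lum, a proteoglycan of fibrous connective tissue, was present in 15 connective cells, and all 15 also had Col2a1. Col2a1 was present in 18 of the 19 connective cells, so most of this overlap follows from that. It was also found in 12 of 37 epithelial cells, so its presence alone does not mark cartilage.

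Counting cells with at least 5 of 17 chondrocyte markers, Sox9 not counted, gave 9 of 19 (47.4%, exact 95% interval 24.4% to 71.1%) as cartilage-type. The same count was met by 4 of 37 epithelial cells (10.8%) and by 11 of 54 wild-type epithelial cells. The limit cuts a continuous range of 0 to 8 markers, and 8 of the 19 connective cells lay within 1 marker of it, so the name marks a range and not a cell type.

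The 2 cells with Acan, 035c and 024c, are described as a pair chosen after the values were seen. Cell 035c had Acan at 88.6, Col2a1 at 713, Col9a1 at 716, Col9a3 at 719, Ucma at 153, Sox6 at 136 and the highest Sox9 of the class at 48.4. Its Lum, Col1a1, Crym, Il33, Igf1 and Foxp2 were all listed at 0, while Col1a2 read 412 and Col3a1 230. Cell 024c had Acan at 9.77 and Col9a3 at 672, and the same 6 genes were also listed at 0 there, although Col1a2 read 118, Col3a1 142 and Prrx1 143. Sox9 in cell 024c was 1.03. Cell 058c had high cartilage genes without Acan, with Ucma at 233 and Col9a3 at 709, and it also had Lum at 153. Among the other 17 connective cells, Col1a1 was below an FPKM of 1 in cell 020c alone.

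**Figure D5:**
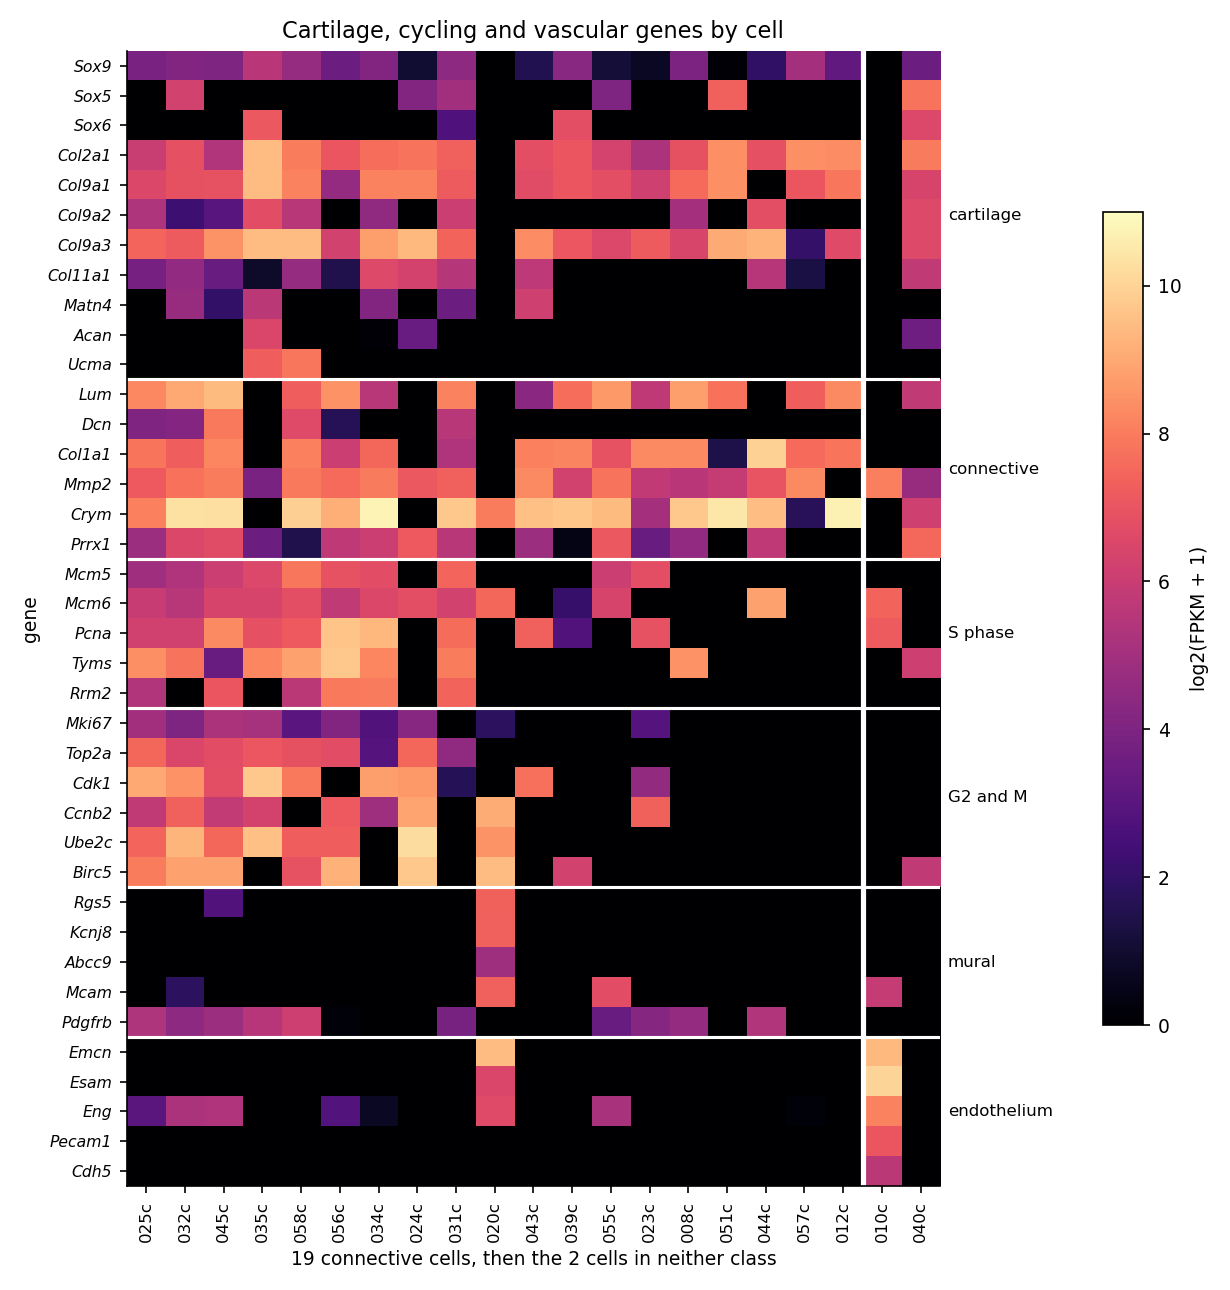
Columns are the 19 connective cells, ordered by the number of cycling genes from 30 on the left to 1 on the right, followed by cells 010c and 040c of neither class. Rows are genes by group and colour gives log2(FPKM + 1). Col2a1 and Col9a3 are present in 18 of 19 cells, G2 and M phase genes on the left, Rgs5, Kcnj8 and Abcc9 in cell 020c and endothelium genes in cell 010c.

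Connective cells also differed in cell cycle genes. Of 34 genes of S phase and of G2 and M phase, 10 connective cells had at least 10 present and the others no more than 7. The share was 52.6% (exact 95% interval 28.9% to 75.6%), against 4 of 37 epithelial cells (10.8%, 3.03% to 25.4%) and 5 of 54 wild-type epithelial cells (9.26%). Cells are not replicates, so setting the intervals side by side is no test. Counts in cycling connective cells ran from 10 to 30. Of the 10, 8 were also cartilage-type, against 1 of the 9 others.

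Cycling connective cells had more genes above 0 (3247 to 6459, median 3959) than the others (1406 to 4542, median 3135), and the part of gene number in both counts was not tested. Top2a, the topoisomerase that untangles replicated DNA, was found in 9 connective cells (highest 182) and 2 epithelial cells, a difference of 2.66. Ube2c, which marks cyclins for destruction in mitosis, was found in 8 and 2 cells, a difference of 3.14. Mcm6, part of the replicative helicase, was found in 13 and 11 cells, a difference of 2.61.

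In the class comparison 5 of 14 S-phase and 8 of 20 G2 and M phase genes were higher in connective cells and none was lower. The 10 cycling connective cells were chosen on these same genes, so values without them are lower by that choice. The 4 epithelial cells that met the same count were kept. For the S-phase genes that entered, the median difference went from 1.89 to 0.03. For the G2 and M phase genes it went from 1.76 to -0.29. Ccnd2, a G1 cyclin, differed by 3.85 (16 connective and 15 epithelial cells), and Cdk6, its kinase partner, by -2.08.

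Core histone genes, which are transcribed in S phase, also varied among connective cells. Hist1h2ao stood between 1086 and 4287 in 8 of the 10 cycling connective cells and between 0 and 101 in the other 11 connective cells. The cycling cells below the gap were 031c, with 12 S-phase and 3 G2 and M phase genes and Hist1h2ao at 57.3, and cell 020c at 25.9. The class difference of Hist1h2ao was 5.29, and 2.31 without the 10 cycling cells. Histone cluster genes are near-identical copies, so reads may be shared among them and the level of any 1 copy is uncertain. Of 69 such genes 14 were higher in connective cells and none was lower.

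Vascular markers were sparse in the connective class. At least 3 of 17 endothelium markers were found in 2 of 19 connective cells and in 0 of 37 epithelial cells (exact upper limit 9.49%). Cell 020c had Emcn at 712, Eng at 100.01 and Esam at 86.4, but Pecam1, Cdh5 and Kdr, which define endothelium, were listed at 0. It carried mural genes of the cells that wrap small vessels: Rgs5 at 163, the channel subunits Kcnj8 at 159.7 and Abcc9 at 28.5, and Mcam at 157. Cell 025c also had 4 of the mural markers, Pdgfrb at 38.2, Tagln at 32.3, Notch3 at 2.98 and Acta2 at 1.30, none of which reached an FPKM of 1 in cell 020c. Igfbp7 in cell 020c stood at 1311, against a highest value of 74.2 in the other 18 cells. It had no chondrocyte marker, the lowest Col1a2 of the class at 18.5, and Lum, Col1a1, Mmp2 and Cthrc1 listed at 0.

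The second cell, 045c, had Egfl7 at 62.7, Eng at 39.3 and Erg at 1.71 beside Lum at 687 and Col2a1 at 40.9, and 29 cycling genes, so its markers sat beside matrix genes of the other connective cells. With a limit of 5 FPKM in place of 1, cell 020c alone was left (5.26%). Pdgfrb, listed as a mural marker, was found in 10 connective cells and is shared with other mesenchyme. Without cell 020c the class comparison gave 269 higher and 526 lower genes.

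The single wild-type connective cell, 027, gives a level for 1 cell and no comparison of genotypes. Its Col1a2 stood at 559 and its Col3a1 at 34.1. It had 11 of 17 chondrocyte markers, Sox9 not counted, against at most 8 in any of the 19 Sox9Y440X/+ connective cells. Col2a1 at 1136, Col9a3 at 1815, Sox5 at 273 and Sox6 at 221 each lay above the highest of those 19. These 4 genes were picked after values were seen. Crym at 591 and Lum at 213 lay inside the range of the 19 cells, and 21 cycling genes were present in cell 027.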

How the data were processed

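Single endolymphatic sac cells of 2 genotypes were measured by Smart-seq2. The authors deposited FPKM values in 1 table of 48555 entries, and per the submitters' processing notes HISAT2, SAMtools 0.1.18, Cufflinks, HTSeq and the build mm10 were used, with no role or order given. The annotation, not given in the sources used here, and the settings may affect the values. FPKM carries no counts, so depth is unknown. The label's gene number equalled the entries above 0 in all 120 cells.

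Entries with 1 symbol were summed, leaving 48371 symbols. Detection means an FPKM of at least 1. The difference of mean log2(FPKM + 1) between classes was computed in Python 3.11.15 with pandas 2.3.3, NumPy 2.4.6 and SciPy 1.17.1 (exact binomial intervals), and the code was tested on simulated data. No doublet caller was run. Coordinates come from GENCODE M21 (GRCm38, the assembly of mm10) and promoter windows from RefSeq. Of 630 listed genes 623 were matched, 3 by an older symbol.

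Named genes were the 14 largest positive and 14 largest negative differences among genes seen in 50% or more of a class's cells, with the same sign in the log2 ratio of mean FPKM, passing over Gm-number, mt-, Rik, -ps, Rpl, Rps and AC-number symbols, and 2 to 6 members of each list. The members and lists were chosen with earlier results of these data known. Of the 49 lists 5 (immediate-early, Zic, p53 target, metallothionein and small heat shock, histone cluster genes), the promoter motif, the leaving out of cell 020c, the cells singled out and list members beyond the rule were chosen after values were seen. Alternatives were other pseudocounts, a ratio of means, scaling, gene minimums, class limits, filters and folds, and leaving out cycling or vascular cells.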

Additional observations from a re-analysis of the deposited data

Results flagged for a closer look

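A signal outside both classes appeared in a Sox9Y440X/+ cell, above the level in every wild-type cell. Cell 010c, in which Epcam, Col1a2 and Col3a1 were all listed at 0, had 14 of 17 endothelium markers at an FPKM of at least 1. No wild-type cell had more than 2. Of the 57 wild-type cells with at least 1000 genes, 54 were epithelial and 1 was connective, so this is no comparison of genotypes. Esam stood at 1038, Egfl7 at 991 and Emcn at 664 in cell 010c. Among cells with too few genes to be used, 002c of the mutant (457 genes above 0) had 7 of 9 erythroid markers and 056 of the wild type (479 genes) had 8.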

How the results depend on the processing

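No paired analysis was possible because the numbers in the labels only name cells and no test was made. The counts of higher and lower genes moved with the added constant: 677 and 1309 with 0.1, and 54 and 119 with 10. They were 524 and 864 by the log2 ratio of mean FPKM, and 943 and 1681 at 1 log2 unit. Without the 10 cycling connective cells 203 genes were higher and 856 lower, and the median over all genes went to -0.53. The 4 epithelial cells that met the cycling count were kept. The 9 connective cells left had a median of 3135 genes above 0, against 4506 in epithelial cells, and the part of this gap was not tested. The Sox9 difference was -0.86 with a constant of 0.1, -0.21 with 10, -0.32 by the ratio of means, -0.35 in cells with 2500 to 5500 genes and -1.12 without cycling cells, and stayed below 0 under every setting tried. Requiring both collagens of connective cells and Col1a2 below 1 in epithelial cells left 46.6% epithelial. That stricter rule left out the 10 epithelial cells in which Col1a2 reached an FPKM of 1, and all 19 connective cells met it. For the 28 genes named by rule, 309 of 336 values stayed within 1.5 times the main value, 27 moved further and 0 changed sign. These genes were chosen as the largest differences with the same sign by the ratio of means, which is 1 of the 12 settings. Their stable signs therefore follow from that choice and say nothing of other genes. For the medians of 37 lists 108 of 444 values moved by more than 1.5 times and 9 changed sign, in the Wnt, hedgehog, reference and G2 and M phase lists. With unknown depth, a gene at 0 in a cell cannot be called absent.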
